A study of Rattus norvegicus with 10 samples.

Results

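The MHC class II genes and Ciita were described here in whole liver of 10 male Wistar rats, an outbred stock, made cirrhotic by inhaled CCl4. The 8 genes, of 14217 genes with a probe set of a single symbol, were chosen by name as the rat class II chains of the B, D and DM pairs (RT1-Ba, RT1-Bb, RT1-Da, RT1-Db1, RT1-DMa and RT1-DMb), the invariant chain Cd74 and the transactivator Ciita. All 8 had such a probe set. They had 14 between them, and each gene was read from the one that varied most over the 10 arrays. Of the rats, 5 were given vehicle and 5 were given CVX-060, which inhibits the vessel factor Ang2, at 10 mg/kg through the tail vein weekly for 4 weeks. Every rat carried the CCl4 cirrhosis, so that each difference below is between treated and untreated cirrhotic liver, and no healthy group was analysed here. Each liver had an Affymetrix Rat Genome array of its own. The array measures transcripts near their 3′ end and gives a log2 signal per probe set, where a step of 1 is a doubling. Probe sets bind with different strength, so a signal was compared between rats and never between genes.

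MHC class II molecules are pairs of an alpha and a beta chain that show peptides from taken-up proteins to CD4 T cells. Dendritic cells, B cells and macrophages, among them the Kupffer cells of the liver, carry them, and interferon gamma can induce them in other cells. Nearly all class II genes, Cd74 and the DM genes are switched on together by CIITA, which does not bind DNA itself but docks on RFX, CREB and NF-Y proteins that sit on the X and Y boxes of their promoters.

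The hepatocyte genes Alb, Ttr, Apoa1, Serpina1, Cps1, Hnf4a and Tat lay above background in all 10 rats, which fits the liver label. Background was set for each array as the 95th percentile of 20 receptor genes of smell, pheromone and trace amine sensing. It was 5.34 to 6.06 over the arrays (median 5.87). The 90th percentile of these genes was lower, 4.44 to 5.20 (median 4.66). The median signal of an array was itself 5.54 (median over the arrays). A gene below background here is therefore dim and not shown to be absent. A pair of arrays, vehicle rat 2 and CVX-060 rat 5, lay far from the rest along the first principal component of all genes (35.4% of the variance). In both of them Cyp2c11, a cytochrome P450 of male rat liver, was low, at 8.99 and 11.42 against 12.69 to 13.93 in the other 8 rats. Cyp2c12, its counterpart in female liver, was high there, at 12.71 and 12.02 against 7.10 to 9.79. The Y-linked gene Eif2s3y lay between 8.99 and 9.36 in all 10 rats, as the male label has it. The same pair of rats held most of the highest class II signals, so the relations with Ciita and the differences between the groups are also given without them.

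The promoters of these genes were read from RefSeq sequence, because the X and Y boxes of class II genes are known to lie close to the start. A window of 300 bases (250 before the gene's start and 50 after it, assembly GRCr8) was on hand for 6 of the 8 genes, Cd74, RT1-Ba, RT1-Bb, RT1-Da, RT1-Db1 and RT1-DMa, and not for Ciita or RT1-DMb. The letters ACNGATG, the 3′ part of the X box, and CCAAT, the core of the Y box, were searched on both strands. In 4 of the 6 windows ACNGATG was followed on the gene's strand by the reverse complement of CCAAT, with 15 to 30 bases between them. In RT1-Da and RT1-DMa 23 bases lay between, and in RT1-Bb and RT1-Db1 22 bases. Such a pair stood in 42 of 33469 windows of all genes (0.125%), while the X box part alone stood in 10.2% and CCAAT alone in 37.5%. These 4 windows are printed 5′ to 3′ on the gene's strand, with every match to either motif in capitals, for the spacing that they share. RT1-Da lies on the plus strand at chr20:4515165-4515464, RT1-Db1 on the minus strand at chr20:4560113-4560412, RT1-Bb on the minus strand at chr20:4604069-4604368 and RT1-DMa on the minus strand at chr20:4712286-4712585.
RT1-Da: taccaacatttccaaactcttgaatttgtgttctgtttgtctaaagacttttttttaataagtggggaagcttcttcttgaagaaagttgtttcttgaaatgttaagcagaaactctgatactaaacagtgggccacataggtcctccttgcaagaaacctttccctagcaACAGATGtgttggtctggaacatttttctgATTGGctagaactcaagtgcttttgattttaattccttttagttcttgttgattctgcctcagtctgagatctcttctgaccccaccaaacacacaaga
RT1-Db1: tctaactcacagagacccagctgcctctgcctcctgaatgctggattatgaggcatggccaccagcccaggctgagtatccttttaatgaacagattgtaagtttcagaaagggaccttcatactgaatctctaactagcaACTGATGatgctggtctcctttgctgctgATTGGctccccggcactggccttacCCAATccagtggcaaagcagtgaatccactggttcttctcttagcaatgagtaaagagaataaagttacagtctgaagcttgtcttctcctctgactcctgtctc
RT1-Bb: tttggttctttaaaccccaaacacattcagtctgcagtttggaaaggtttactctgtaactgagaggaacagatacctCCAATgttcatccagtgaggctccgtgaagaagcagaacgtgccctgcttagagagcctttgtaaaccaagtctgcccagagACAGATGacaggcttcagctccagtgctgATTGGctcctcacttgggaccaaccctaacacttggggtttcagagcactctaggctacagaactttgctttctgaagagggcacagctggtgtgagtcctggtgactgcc
RT1-DMa: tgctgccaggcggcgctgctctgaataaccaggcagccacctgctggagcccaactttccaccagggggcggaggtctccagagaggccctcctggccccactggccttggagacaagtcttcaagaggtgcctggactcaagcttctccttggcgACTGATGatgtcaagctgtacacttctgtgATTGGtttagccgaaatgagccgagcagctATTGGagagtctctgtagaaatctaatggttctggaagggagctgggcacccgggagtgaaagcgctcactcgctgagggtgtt
The paired X box part began 79 bases before the start in RT1-Da, 90 in RT1-Bb, 94 in RT1-DMa and 109 in RT1-Db1. The windows of RT1-Ba and Cd74 held CCAAT and no ACNGATG. The search took exact letters, so an X box spelled otherwise would have been missed. Other class II genes with the pair were RT1-Db2 and RT1-DOb, and the class I genes RT1-CE3, RT1-CE5, RT1-CE10 and RT1-M3-1 had it too. Of the 42 windows with the pair, 10 were of genes named RT1, and the rest were of genes with other names. These matches describe letters, and binding was not measured.

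The class II genes varied widely between the rats and did so in step, while CVX-060 and vehicle rats overlapped in all 8 genes. CVX-060 rat 5 was highest in 6 of the 8 genes, and vehicle rat 5 was lowest in 6. The SD over the 10 rats was larger than that of 95.02% to 96.9% of all genes for Cd74, RT1-Ba, RT1-Da, RT1-Db1 and RT1-DMa, of 91.3% for RT1-DMb, of 99.8% for RT1-Bb and of 77.5% for Ciita.

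Ciita, the transactivator, had log2 signals of 5.38, 6.06, 5.42, 5.39 and 5.20 in vehicle rats 1 to 5. In CVX-060 rats 1 to 5 they were 5.65, 5.89, 5.68, 5.33 and 5.92. Vehicle rat 2 was the highest of all and vehicle rat 5 the lowest, and the groups overlapped. The signal was dim, above background in 1 of 5 vehicle and 2 of 5 CVX-060 rats at the 95th percentile and in 10 of 10 rats at the 90th. The other 7 genes lay above the 95th percentile in every rat, apart from RT1-Bb in CVX-060 rat 3.

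Cd74 encodes the invariant chain, which escorts new class II pairs and blocks their groove. Its log2 signals were 10.76, 11.87, 10.81, 11.13 and 10.16 in vehicle rats 1 to 5 and 11.54, 11.46, 10.67, 10.77 and 12.34 in CVX-060 rats 1 to 5. The highest and the lowest rat differed 4.51-fold. CVX-060 rat 5 and vehicle rat 2 led, vehicle rat 5 trailed, and the groups overlapped.

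RT1-Da and RT1-Db1 are the alpha and beta chains of RT1-D, the rat counterpart of HLA-DR. RT1-Da read 10.63, 11.69, 10.69, 10.72 and 9.81 in the vehicle rats and 11.26, 11.38, 10.41, 10.58 and 12.07 in the CVX-060 rats, a 4.79-fold span. RT1-Db1 read 8.98, 10.12, 9.13, 9.24 and 8.54 with vehicle and 9.83, 9.85, 9.13, 9.08 and 10.48 with CVX-060, a 3.83-fold span. In both chains CVX-060 rats 5, 2 and 1 and vehicle rat 2 were the high rats and vehicle rat 5 was the lowest. RT1-Db1 had another probe set, which lay between 4.60 and 5.48 and above background in 1 rat, CVX-060 rat 5.

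RT1-Ba is the alpha chain of RT1-B, the counterpart of HLA-DQ. Its log2 signals were 9.29, 10.02, 8.98, 9.21 and 8.24 in vehicle rats 1 to 5 and 9.58, 9.87, 8.82, 8.85 and 10.40 in CVX-060 rats 1 to 5. The order was much like that of the RT1-D chains, with vehicle rat 5 lowest and the groups overlapping. RT1-Ba had 3 more probe sets. One of them ranged from 8.89 to 10.88 and correlated with Cd74 at r = 0.94, whereas the other 2 ranged only from 6.85 to 7.13 and from 6.98 to 7.37 (r of -0.27 and -0.31 with Cd74).

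RT1-DMa and RT1-DMb form DM, which exchanges the invariant chain's fragment for peptide. RT1-DMa read 7.35, 8.24, 7.19, 7.49 and 7.03 with vehicle and 7.83, 7.76, 6.99, 7.56 and 8.80 with CVX-060. RT1-DMb read 8.50, 9.34, 8.78, 8.82 and 8.45 with vehicle and 9.32, 9.02, 8.73, 8.67 and 9.88 with CVX-060. CVX-060 rat 5 and vehicle rat 2 were again the highest pair, and RT1-DMb had the smallest span of the class II genes, 2.70-fold.

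**Figure D1:**
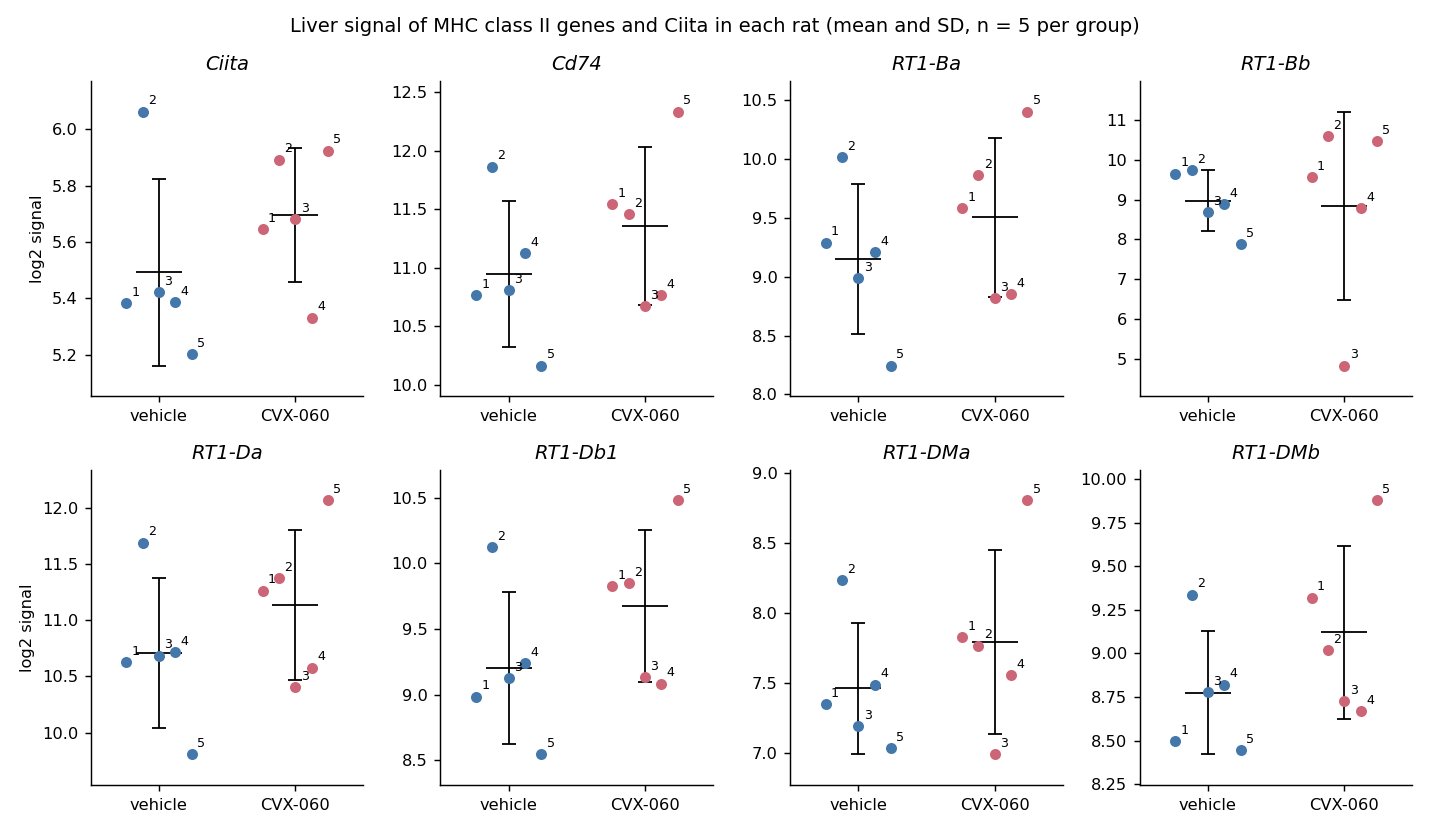
Log2 signal (vertical axis, a scale of its own in each panel) of the 8 genes in vehicle and CVX-060 rats. Each point is 1 rat with its number, the horizontal bar is the mean and the error bar the SD (n = 5 per group). CVX-060 rat 5 is the highest rat in 6 panels, and RT1-Bb drops to 4.82 in CVX-060 rat 3.

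RT1-Bb, the beta chain that pairs with RT1-Ba, departed from this order in single rats. The probe set used read 9.65, 9.75, 8.68, 8.88 and 7.89 in vehicle rats 1 to 5 and 9.56, 10.59, 4.82, 8.78 and 10.47 in CVX-060 rats 1 to 5. CVX-060 rat 3 lay 3.07 below the next lowest rat. The other RT1-Bb probe set was not low in that rat. It read 5.02, 8.79, 7.89, 8.06 and 7.23 with vehicle and 8.55, 4.48, 8.67, 7.97 and 9.37 with CVX-060. Here vehicle rat 1 and CVX-060 rat 2 were low, by 2.21 or more against each of the other 8 rats, and those rats were high on the probe set used. No rat was low on both probe sets, and the low rats came from both groups.

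Outside its low rats, each RT1-Bb probe set followed RT1-Ba. Over all 10 rats r with RT1-Ba was 0.68 for the probe set used and 0.10 for the other. It was 0.93 over the 9 rats without CVX-060 rat 3 and 0.88 over the 8 rats without vehicle rat 1 and CVX-060 rat 2. These rats were left out for their RT1-Bb signal, so that the higher values are a description with no test. Of all 31099 probe sets, 1 was lower by at least 2 in CVX-060 rat 3 than in every other rat, this RT1-Bb probe set, and 2 were higher there by as much. In vehicle rat 1 and CVX-060 rat 2 together 3 probe sets were lower by at least 2, and 4 were higher. Apart from RT1-Bb these 3 were a probe set with no gene symbol and one of RT1-CE10, a class I gene, which read 7.98 and 8.32 in these rats and 10.49 to 11.17 in the others. The source of these low signals was not tested.

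**Figure D2:**
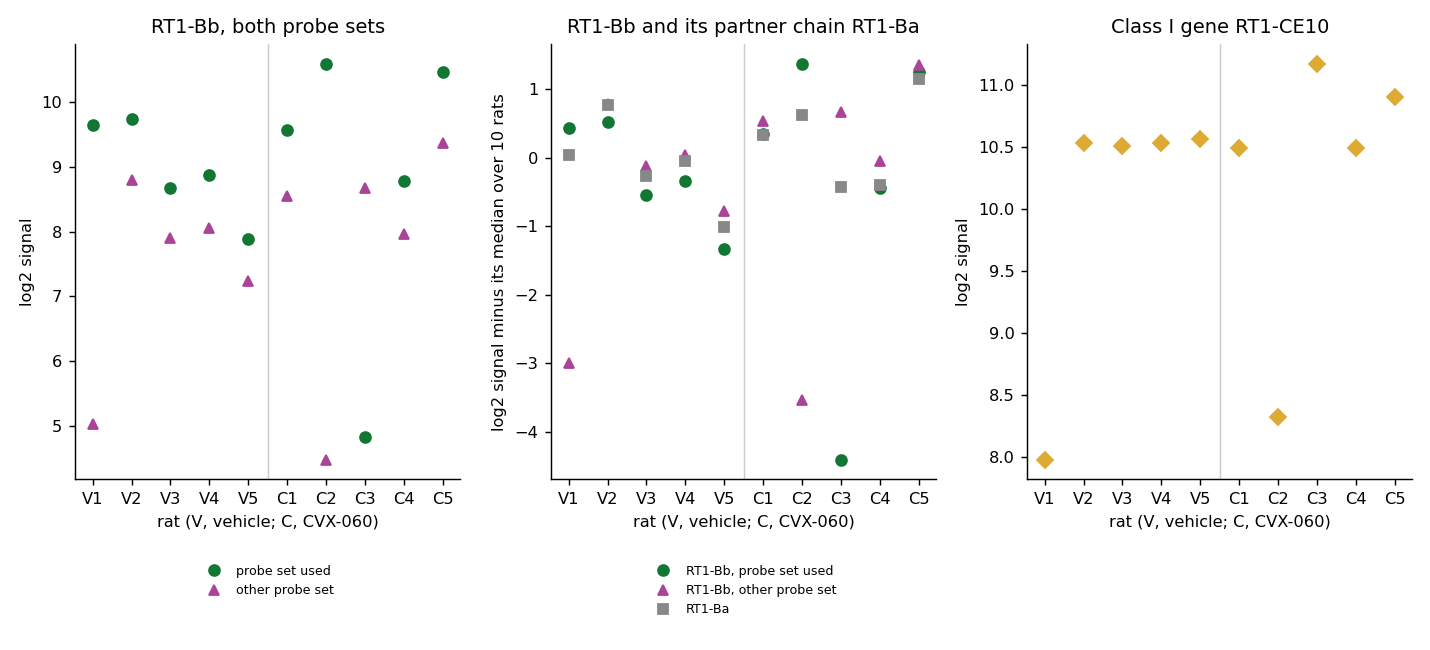
Log2 signal of both RT1-Bb probe sets in each rat (left), the same set beside RT1-Ba with each probe set's median over the 10 rats taken away (middle), and log2 signal of the class I gene RT1-CE10 (right). The probe set used is low in CVX-060 rat 3, and the other RT1-Bb probe set and RT1-CE10 are low in vehicle rat 1 and CVX-060 rat 2.

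Co-variation with Ciita was then measured over the 10 rats, in 7 relations. All 7 class II genes had r above 0 with Ciita, from 0.32 in RT1-Bb to 0.90 in RT1-Db1, with a median of 0.84 where the median over all 14216 other genes was -0.03. A positive slope at an unadjusted p under 0.05 in limma was found for 6 of the 7, all but RT1-Bb, against 9.83% of all genes, and an adjusted p under 0.05 for none of the 7, against 0.00703% of all genes, which is 1 gene. In whole liver, more cells of a type that carries class II and more class II RNA per cell cannot be told apart.

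RT1-Db1 followed Ciita most closely, with r = 0.90 (permutation p = 0.00049, two-sided) and Spearman's rho = 0.92 (permutation p = 0.00049). RT1-Da had r = 0.86 (permutation p = 0.00117) and rho = 0.79 (p = 0.00868), and RT1-Ba r = 0.85 (permutation p = 0.00187) and rho = 0.76 (p = 0.0151). For Cd74 r was 0.84 (permutation p = 0.00257) and rho 0.76 (p = 0.0150). Both DM chains were lower in r. RT1-DMb had r = 0.79 (permutation p = 0.00482) and rho = 0.87 (p = 0.00211), whereas RT1-DMa had r = 0.73 (permutation p = 0.0139) and rho = 0.60 (p = 0.0728). RT1-Bb had r = 0.32 (permutation p = 0.392) and rho = 0.58 (p = 0.0874). CVX-060 rat 3, with its low RT1-Bb signal, set that value, since r was 0.83 without this rat.

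In limma's slope on Ciita with the treatment in the model, adjusted over all genes, RT1-Db1 changed by 1.77 per unit of Ciita (standard error 0.32, adjusted p = 0.0816). RT1-Da had a slope of 1.95 (standard error 0.41, adjusted p = 0.101), RT1-Ba of 1.91 (adjusted p = 0.106) and Cd74 of 1.84 (adjusted p = 0.113). RT1-DMb, RT1-DMa and RT1-Bb had adjusted p of 0.158, 0.208 and 0.592. These calls changed when the arrays were weighted: with array weights limma called 6 of the 7 at 0.05 after adjustment, among 3178 genes in all. The cause was not tested. A slope above 1 means that the class II signal spanned more of the log2 scale than the dim Ciita signal did. By r with Ciita, RT1-Db1 ranked 40th, RT1-Da 86th, RT1-Ba 105th, Cd74 146th, RT1-DMb 297th, RT1-DMa 617th and RT1-Bb 3626th of 14216 genes.

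With the group means removed, r ran from 0.36 in RT1-Bb to 0.88 in RT1-Db1 over the 7 genes. Within the 5 vehicle rats it ran from 0.71 to 0.97 and within the 5 CVX-060 rats from 0.34 to 0.81, in groups too small for a test of r. Vehicle rat 2 and CVX-060 rat 5 are the rats farthest from the median Ciita signal as well as those that stood apart over all genes. Without them r was 0.84 for RT1-Db1, 0.76 for RT1-Da, 0.75 for RT1-Ba, 0.72 for Cd74, 0.69 for RT1-DMb, 0.45 for RT1-DMa and 0.09 for RT1-Bb. Read from the other Ciita probe set, which lay below background in every rat at the 95th percentile, the median r was 0.45.

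**Figure D3:**
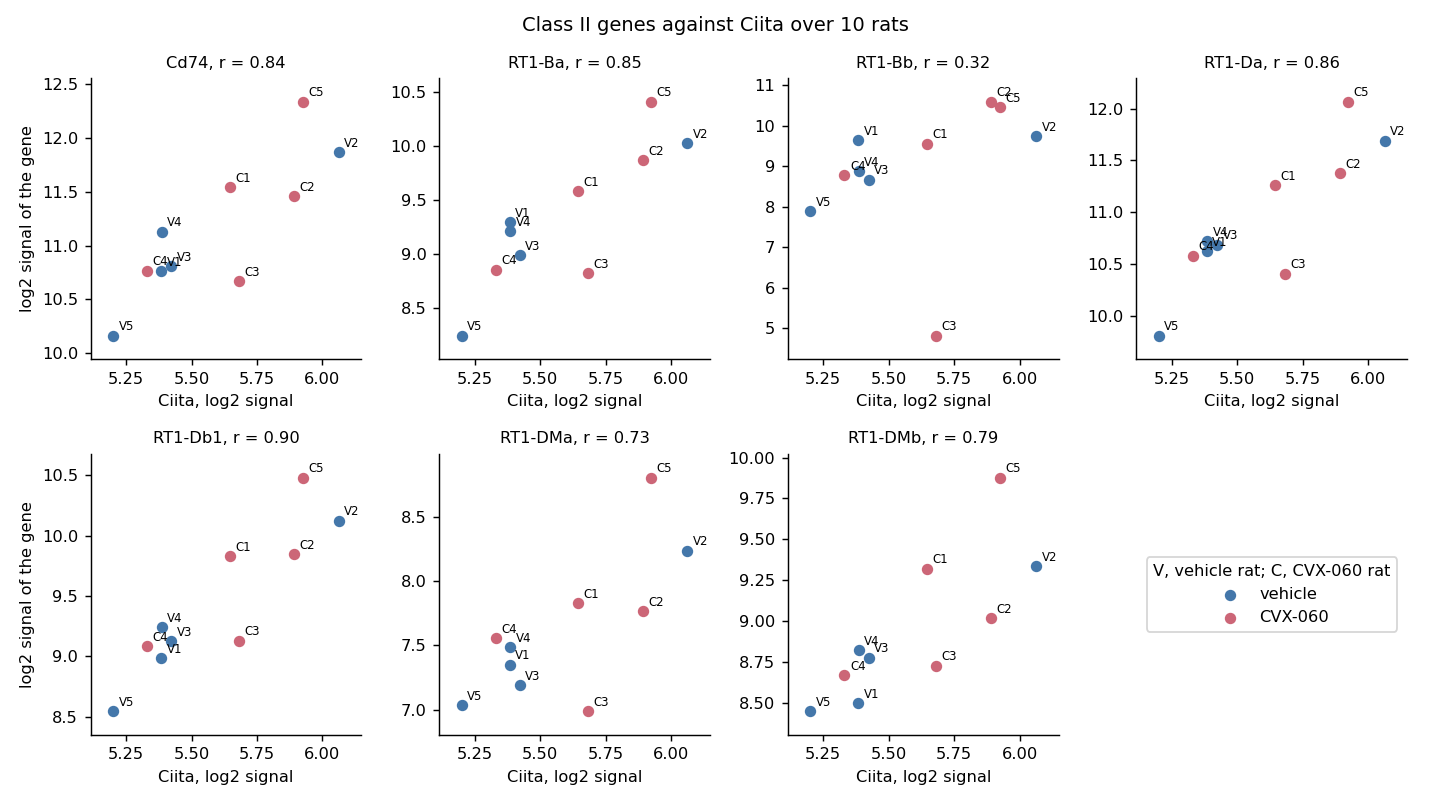
Log2 signal of each class II gene (vertical axis) against that of Ciita (horizontal axis) in the 10 rats, coloured by group, with Pearson's r above each panel. Points rise from vehicle rat 5 to vehicle rat 2 and CVX-060 rat 5, and CVX-060 rat 3 lies below the others at its Ciita signal, most of all in RT1-Bb.

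The class II genes were then set against each other. Over the 15 pairs of Cd74, RT1-Ba, RT1-Da, RT1-Db1, RT1-DMa and RT1-DMb, r lay between 0.88 and 0.99 (median 0.96). Over the 8 rats without vehicle rat 2 and CVX-060 rat 5 it lay between 0.73 and 0.97. RT1-Bb correlated with these 6 genes at 0.50 to 0.69. Cd74 and RT1-Db1, and Cd74 and RT1-Da, were the pairs nearest to 1, both at 0.99.

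The genes nearest to Ciita were led by Itgax, which encodes CD11c, an integrin chain of dendritic cells and some macrophages. It read 5.73, 7.19, 6.01, 5.73 and 5.45 in vehicle rats 1 to 5 and 6.27, 6.62, 6.33, 5.68 and 6.49 in CVX-060 rats 1 to 5, in nearly the order of Ciita, and lay above background in 5 of the 10 rats. Its r with Ciita was 0.97 and its rho 0.98, given as a description since it was picked as the highest r of all genes. It was the 1 gene past an adjusted p of 0.05 in limma (slope 1.85, standard error 0.16, adjusted p = 0.0101). No gene passed without vehicle rat 2, without vehicle rat 5, or without both vehicle rat 2 and CVX-060 rat 5, although r of Itgax was 0.98 over those last 8 rats. With the other Ciita probe set it was 0.18. The next 9 genes by r were Capg (0.96), which caps actin filaments in macrophages, Cdc14a (0.95), Slc8a1 (0.94), Apbb1ip (0.94), Tnik (0.94), Tmem252 (0.93), Elk3 (0.93), Slc6a6 (0.93) and Chsy1 (0.93), with slopes at adjusted p of 0.0691 to 0.0820 in limma. Some were dim, with Cdc14a above background in 0 rats, Tnik in 1 and Tmem252 in 3. At the 90th percentile Cdc14a lay above background in 3 rats, and Tnik and Tmem252 in 10.

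A class II index, the mean log2 signal of Cd74, RT1-Ba, RT1-Bb, RT1-Da and RT1-Db1, had other nearest genes. They were Phc2 (r = 0.95), Ecscr (0.93), Fas (0.93), Acss1 (0.93), Il2rg (0.92), Vopp1 (0.92), Plxdc2 (0.91), Dclre1a (0.91), Mettl15 (0.90) and Tmtc1 (0.90). Fas is a death receptor and Il2rg the shared chain of several interleukin receptors. When RT1-Bb, with its low CVX-060 rat 3, was taken out of the index, Clec12a, a lectin of myeloid cells, came first (0.97), and only Vopp1 (0.95) and Ecscr (0.94) stayed among the first 10.

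Of the other genes of the pathway, those that cut proteins and load peptide had r above 0 with Ciita in every case. All 6 measured genes of peptide loading and lysosomal proteolysis had a positive slope at an unadjusted p under 0.05, against 9.83% of all genes, and none passed the adjusted test. Their median r was 0.74, and 0.62 over the 8 rats without vehicle rat 2 and CVX-060 rat 5. Lgmn, the protease legumain, had r = 0.84, Ctsb 0.78, Ctsd 0.75, Ctsl 0.73, Ifi30, which reduces disulphide bonds, 0.73, and Ctss, the cathepsin that trims the invariant chain, 0.72. Without vehicle rat 2 and CVX-060 rat 5 they ran from 0.43 for Ctsl to 0.73 for Lgmn.

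For the other gene groups each value of r over 10 rats is followed by the value over those 8 rats. Of the 7 measured promoter-bound factors, 2 had r above 0 with Ciita (median -0.14, and -0.07 over 8 rats). They were Rfx5, the large RFX subunit (0.80, then 0.50), and Nfya (0.47, then 0.05), while Rfxap, Rfxank, Nfyb, Nfyc and Creb1 lay between -0.58 and -0.14 over 10 rats. Among 14 inducers and regulators of Ciita or class II 12 had r above 0 (median 0.28, then 0.24). This list mixes genes that raise and genes that lower class II, so the count is not read as a direction. Ifngr1, a chain of the interferon gamma receptor, had r = 0.88, then 0.86. The ubiquitin ligase Marchf1, which removes class II from the surface and lay above background in 2 rats, had 0.77, then 0.54, Irf8 0.73, then 0.57, and Ifngr2 0.49, then -0.03. Ifng itself lay below background in all 10 rats and had r = -0.18. Among 12 genes of class I presentation 9 had r above 0 (median 0.36), and 7 over 8 rats (median 0.07). Pdia3 (-0.68, then -0.33) and Calr (-0.66, then -0.57) had the smallest unadjusted slope p of this list in limma (0.0018 and 0.0032). Erap1 had 0.76, then 0.51, and Nlrc5, the activator of class I genes, -0.69, then -0.62. In costimulation 4 of 8 genes had r above 0 (median 0.02), and 5 over 8 rats (median 0.32).

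Markers of cells that carry class II were read in the same way. Of 13 macrophage and Kupffer cell markers, all above background in all rats, 12 had r above 0 (median 0.68), and 13 over the 8 rats (median 0.70). Among them were Adgre1 (0.90, then 0.88), Csf1r (0.83, then 0.86), Aif1 (0.83, then 0.79) and Mrc1 (0.81, then 0.81). Of 6 dendritic cell markers 5 did (median 0.60), and 6 over the 8 rats (median 0.36). Clec10a had 0.74, then 0.27, Clec9a 0.63, then 0.75, and Flt3 0.56, then 0.46. Clec9a lay above background in 2 rats and Flt3 in 1, and both in 10 at the 90th percentile. Batf3 (-0.22, then 0.16) and Cd1d1 (0.08, then 0.03) lay above background in all 10 rats. Of 7 B cell markers 2 had r above 0 (median -0.41, then -0.10), and Ms4a1, Cd79b, Cr2 and Blk lay below background in all rats. Of 5 plasma cell markers 1 did (median -0.26, then -0.05), with Mzb1 and Tnfrsf17 below background. Of 15 T and NK cell markers 11 did (median 0.39, then 0.38), while 8 of the 15 lay below background in all rats. At the 90th percentile Mzb1 and Tnfrsf17 lay above background in 7 rats each and Cd79b in 5, but Ms4a1, Cr2 and Blk in 0. Of those 8 T and NK cell markers, Cd4 did in 10 rats, Cd3e in 7, Cd8b in 3 and Cd247 and Cd8a in 1. Cd3d, Cd5 and Gzmb did in 0.

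Markers of several cell types outside the immune system also had r above 0 in most cases. All 7 markers of sinusoidal endothelium did (median 0.56), and all 7 over the 8 rats (median 0.61). Of 9 markers of stellate cells and myofibroblasts 8 did (median 0.68, then 0.43). The 5 cholangiocyte markers had r above 0 over 10 rats (median 0.53), and the median was 0.02 over the 8 rats, where they ran from -0.04 in Krt7 to 0.15 in Cldn4. Of 7 hepatocyte markers 2 had r above 0 (median -0.25), and 5 over the 8 rats (median 0.15), so that the sign of this median rested on vehicle rat 2 and CVX-060 rat 5. Of 3 clock genes 1 did (median -0.51, then -0.76), but their signs differ, so the median hides their size. Bmal1 had r = 0.53, then 0.81, Dbp -0.51, then -0.84, and Nr1d1 -0.54, then -0.76. The median of the 7 class II genes over the same 8 rats was 0.72. In each of these lists the genes past the adjusted test numbered 0, except for Itgax. The part of cell numbers in the class II signals was not tested.

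**Figure D4:**
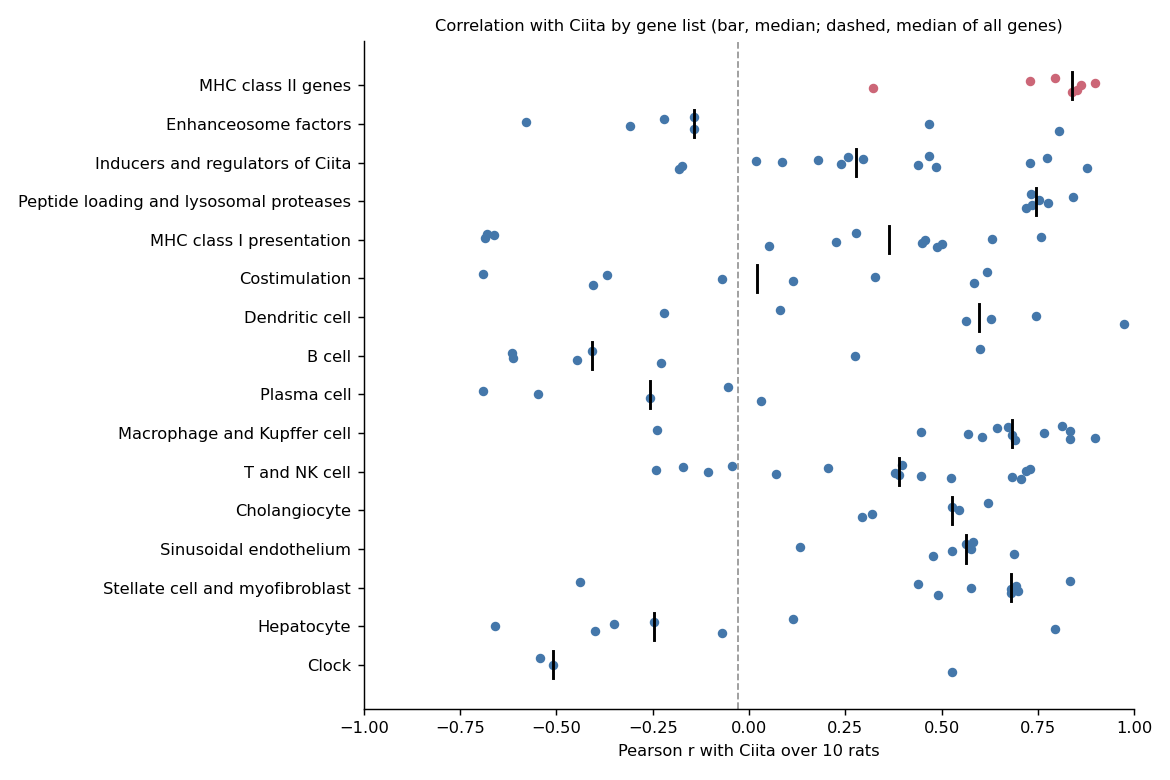
Pearson's r with Ciita over 10 rats (horizontal axis) for each measured gene of 16 gene groups. Points are genes, black bars are medians (0.84 for the 7 class II genes) and the dashed line is the median over all genes, -0.03. Beside the class II genes, the medians farthest to the right are those of peptide loading, macrophage, stellate cell, dendritic cell, sinusoidal endothelium and cholangiocyte genes. Those farthest to the left are of clock, B cell, plasma cell and hepatocyte genes.

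For CVX-060 against vehicle, 7 of the 8 genes had a higher mean with CVX-060 and RT1-Bb a lower one. On the probe set used, no gene of the 8 changed beyond the spread between rats. Over all genes 52.6% had a higher mean with CVX-060. The median difference, CVX-060 minus vehicle, was 0.35 on the log2 scale for the 8 genes and 0.01 over all genes. In limma 0 of 8 had an adjusted p under 0.05, against 0% of all genes, and 0 of 8 an unadjusted p under 0.05, against 2.44% of all genes.

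Ciita had a mean of 5.49 ± 0.33 with vehicle and of 5.70 ± 0.24 with CVX-060 (SD, n = 5 each), which is a difference of 0.20 (95% confidence interval from -0.17 to 0.57, limma adjusted p = 1.0, exact permutation p = 0.270). Cd74 went from 10.95 ± 0.62 to 11.35 ± 0.68 (SD, n = 5 each), a difference of 0.41 (interval from -0.39 to 1.21, exact permutation p = 0.333). RT1-Db1 had the largest difference of the 8, 0.47, from 9.20 ± 0.58 to 9.67 ± 0.58 (SD, n = 5 each), or 1.39-fold (interval from -0.25 to 1.19 in log2, exact permutation p = 0.254). For RT1-Da the difference was 0.43 (interval from -0.39 to 1.26, exact p = 0.310), for RT1-Ba 0.36 (from -0.46 to 1.17, exact p = 0.413), for RT1-DMb 0.35 (from -0.19 to 0.88, exact p = 0.254) and for RT1-DMa 0.33 (from -0.38 to 1.03, exact p = 0.397). These intervals held 0 and reached up to 0.57 or more in the direction of CVX-060, and all 8 genes had a limma adjusted p of 1.0.

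RT1-Bb had the widest interval. Its means were 8.97 ± 0.76 with vehicle and 8.85 ± 2.37 with CVX-060 (SD, n = 5 each), a difference of -0.12 (interval from -2.28 to 2.03, exact permutation p = 0.937). Without CVX-060 rat 3 the difference was 0.88, and the other probe set gave 0.41 (exact permutation p = 0.643). Leaving out vehicle rat 2 and CVX-060 rat 5 together gave 0.50 for RT1-Db1, 0.45 for RT1-Da, 0.39 for Cd74, 0.35 for RT1-Ba, 0.30 for RT1-DMb, 0.29 for Ciita, 0.27 for RT1-DMa and -0.33 for RT1-Bb.

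The other Ciita probe set was the single one of the 14 whose groups did not overlap. It read 4.71, 4.74, 4.71, 4.73 and 4.81 in the vehicle rats and 4.99, 4.91, 4.83, 4.94 and 5.02 in the CVX-060 rats. Each CVX-060 rat lay above each vehicle rat (exact permutation p = 0.0079, the smallest that 5 against 5 rats can give, limma adjusted p over all probe sets = 1.0). All CVX-060 rats lay above all vehicle rats in 0.269% of the 20826 probe sets with a single symbol. At the 95th percentile this probe set lay below background in all 10 rats, so that no fold is given for it. At the 90th percentile it lay above background in 7 of the 10 rats. Its r with the brighter Ciita probe set was 0.32. The other, dim RT1-Db1 probe set was higher by 0.28 with CVX-060, with overlapping groups (exact permutation p = 0.0476, unadjusted p = 0.0578 in limma).

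**Figure D5:**
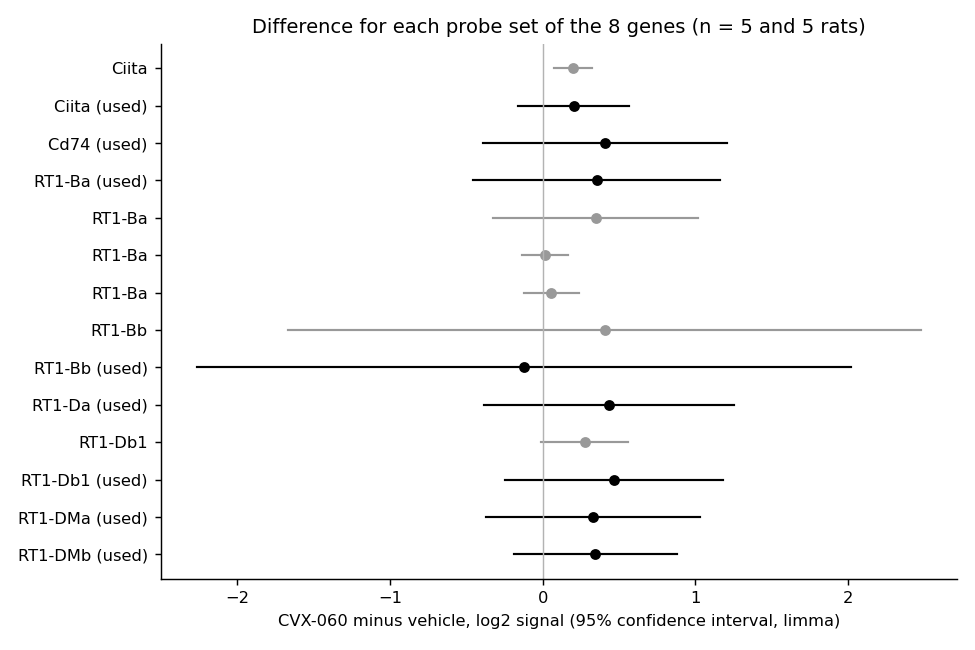
How far the mean log2 signal of CVX-060 rats lay from that of vehicle rats (points, above 0 when higher with CVX-060), with the 95% confidence interval from limma over all probe sets (lines), for the 14 probe sets of the 8 genes (n = 5 rats per group). Black marks the probe set used for a gene and grey the others. Every interval but that of the dim Ciita probe set spans 0.

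In the gene groups around them no gene passed the adjusted test of CVX-060 against vehicle in limma. The median differences ran from -0.84 in the clock genes, whose own differences had unlike signs, to 0.32 in sinusoidal endothelium. All 6 genes of peptide loading and proteolysis had higher means with CVX-060 (median difference 0.13), with Ctss at 0.35 (unadjusted p = 0.0565 in limma). Of 13 macrophage and Kupffer cell markers 12 had higher means (median 0.27), with Mrc1 at 0.40 and C1qc at 0.32 (unadjusted p = 0.0317 and 0.0456 in limma). The mean of these 13 ranged from 9.20 to 9.57 in vehicle and from 9.15 to 9.88 in CVX-060 rats. All 7 markers of sinusoidal endothelium (median 0.32) and all 9 of stellate cells and myofibroblasts (median 0.17) had higher means as well. Lyve1, of the sinusoidal endothelium, was at 0.44 (unadjusted p = 0.0162 in limma). Of 6 dendritic cell markers 3 had higher means (median 0.00), of 7 B cell markers 4 (median 0.02), of 5 plasma cell markers 4 (median 0.01), of 15 T and NK cell markers 11 (median 0.05), of 5 cholangiocyte markers 4 (median 0.04) and of 7 hepatocyte markers 3 (median 0.00). In class I presentation 10 of 12 (median 0.15) had higher means, among the promoter-bound factors 2 of 7 (median -0.05), among inducers and regulators of Ciita 10 of 14 (median 0.04), in costimulation 5 of 8 (median 0.04) and of the clock genes 1 of 3 (median -0.84). The part of these cell types in the class II differences was not tested.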

How the data were processed

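RNA from the livers of 10 cirrhotic rats, 5 with vehicle and 5 with CVX-060, was measured on an array per rat. For its own analysis the paper kept only some replicates of each treatment, chosen by quality control and principal components. Its methods do not name the replicates kept, and all 10 arrays were used here. The authors deposited log2 signals per probe set that they had normalized between arrays. Per the labels, R 3.4.0 with limma 3.38.2 and affy 1.56.0 was used. How background was corrected and probes were summarised is not given in the sources used here, and the scanner files were not used here. Of 31099 probe sets, 57 controls, 436 with several symbols and 9780 with none were dropped. The 8 genes and the 15 gene lists were chosen with earlier results of these data known.

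Under R 4.3.3, limma 3.58.1 (lmFit, eBayes) compared CVX-060 with vehicle and fitted the slope on Ciita beside the treatment. Adjusted p-values are Benjamini-Hochberg values over the whole table of genes. For single differences an exact permutation test, two-sided, went through all 252 divisions into 5 and 5 rats, and correlations had 100000 resamples. Named were all 8 genes with each probe set, up to 4 genes of a list by the smallest p, and the 10 genes nearest to Ciita and to the class II index. Other genes named (the rest of the protease, promoter-bound, dendritic cell and hepatocyte lists, markers below background, Cyp2c11, Cyp2c12, Eif2s3y, Nlrc5, Ifng, RT1-CE10 and Clec12a) were chosen after their values were seen. List members without a probe set of a single symbol were not analysed here. Tables and plots came from matplotlib 3.10.9, scipy 1.17.1, pandas 2.3.3 and numpy 2.4.6 in Python 3.11.15. Each fitted or permuted test was first tested on simulated data. The settings varied were the probe set (highest mean), dim genes (left out under the 40th percentile of mean signal), normalization (quantile again, or equal array medians), weights per array, eBayes with trend and robust, a block for the replicate number, single rats left out, vehicle rat 2 and CVX-060 rat 5 left out, group means removed, and the background level (90th or 99th percentile). Reading Ciita from its other probe set, RT1-Bb as the brighter of its 2 probe sets in each rat, and the index without RT1-Bb were added after the data were seen. The number of arrays limits the precision.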

Additional observations from a re-analysis of the deposited data

Results flagged for a closer look

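In each group of 5 rats, the gap between the end rat and its neighbour was set against the group's whole range, for 14 probe sets in both groups, 28 in all, and 2 stood out. About 1 in 20 such groups would by chance. Ciita in vehicle rat 2, at a log2 signal of 6.06, lay above the other vehicle rats by 0.742 of their range, and this rat was also high in the class II genes. RT1-Bb on its other probe set in CVX-060 rat 2, at 4.48, lay below the other CVX-060 rats by 0.713 of their range. That rat was the highest of all on the RT1-Bb probe set used.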

How the results depend on the processing

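The 7 class II and Ciita differences other than RT1-Bb kept their direction under every alternative run, and no gene, member or other, passed the adjusted test of CVX-060 against vehicle under any of them. RT1-Bb, at -0.12, turned to 0.31 with array weights, to 0.05 without vehicle rat 1, to 0.07 without vehicle rat 2, to 0.88 without CVX-060 rat 3 (from -0.56 to 0.88 with single rats left out) and to 0.65 as the brighter of its 2 probe sets, whose signals are not on 1 scale. With single rats left out, the differences ran from 0.16 to 0.64 for Cd74, 0.13 to 0.35 for Ciita, 0.13 to 0.57 for RT1-Ba, 0.20 to 0.68 for RT1-Da, 0.27 to 0.70 for RT1-Db1, 0.07 to 0.53 for RT1-DMa and 0.16 to 0.49 for RT1-DMb. They were lowest without CVX-060 rat 5, or without vehicle rat 5 for Ciita and RT1-Ba, and highest without vehicle rat 2, or without CVX-060 rat 3 for RT1-DMa. The slope on Ciita was the least stable count. It passed for 1 gene, and for 3178 genes and 6 of the 7 class II genes with array weights. Those weights were estimated with Ciita in the model and are not given here. In the model of treatment alone, vehicle rat 2 and CVX-060 rat 5 had the least weight (0.47 and 0.55). The slope passed for 3 genes with trend and robust, and for 0 without both of these rats or with the other Ciita probe set. Leaving out single rats gave 0 to 5 genes, 0 without vehicle rat 2 or vehicle rat 5, 2 without vehicle rat 3 or 4, 3 without CVX-060 rat 3, 4 without CVX-060 rat 2 and 5 without CVX-060 rat 4. The cause was not tested. The median r with Ciita, 0.84, was 0.72 without vehicle rat 2 and CVX-060 rat 5, 0.45 with the other Ciita probe set, and 0.79 to 0.90 with single rats left out. Of 80 values of the 8 genes, 72 lay above background, 80 at the 90th percentile and 70 at the 99th. With the replicate number as a block 0 genes passed for the slope on Ciita and no other count of calls moved. The numbers do not pair the rats (same-numbered rats' deviations correlated at -0.17 to 0.15, over 0.1 in 1 of 5 pairs).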
